A study of Rattus norvegicus with 9 samples.

Results

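The integrated stress response genes described here are Atf4, Ddit3, Trib3, Sesn2, Chac1, Asns, Ddit4 and Ppp1r15a. They are 8 of the 41801 genes listed in the count tables, and all 8 were found by symbol and had UMIs (unique molecular identifiers, each standing for 1 captured RNA molecule) in all 4 of the main cell classes. The symbols were chosen by name with earlier log2 ratios and levels of the same libraries in view, so their values are given as a description without a test.

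In the integrated stress response, kinases that sense amino acid shortage, unfolded protein in the endoplasmic reticulum, double-stranded RNA or haem shortage phosphorylate the translation factor eIF2. General protein synthesis is then slowed, while the transcription factor ATF4 is translated more. ATF4, often with C/EBP partners, raises genes of amino acid supply and further regulators. Among these are Ddit3 (which encodes the transcription factor CHOP), the pseudokinase gene Trib3, Chac1 (an enzyme that degrades glutathione), Asns (asparagine synthetase), and Sesn2 and Ddit4, whose products restrain mTORC1. Ppp1r15a encodes GADD34, the phosphatase subunit that restores eIF2 and ends the response. Much of the control of ATF4 itself is translational, so an mRNA level of Atf4 does not measure ATF4 protein, and several of these genes also answer to other stresses, such as DNA damage, hypoxia and glucocorticoids.

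The cells came from the osteotomy site of the proximal tibia in Sprague-Dawley rats 6 to 8 weeks old, profiled as single cells on the 10x Genomics platform. Every rat carried a 3-mm circular osteotomy together with a 4-mm full-thickness skin wound on the foot of the same side. TO rats had no further treatment. TOE rats received radial extracorporeal shock waves (rESWT) at the osteotomy in sessions on postoperative days 2 and 4. TOE tissue taken 4 h or 24 h after the day 2 session had that session only. Libraries are named by arm, day of the session and hours after it: TO 2d 0h (taken before any shock wave), TO 2d 4h, TO 4d 4h, TO 4d 24h, TOE 2d 4h, TOE 2d 24h, TOE 4d 4h and TOE 4d 24h. The sample TO 2d 24h is not analysed here. Each condition was 1 library, so the arms could be compared at matched day and hour in 3 pairs, named 2d 4h and, for the later session, 4d 4h and 4d 24h, with no replicate. The study names 9 rats and 9 samples, and the sources used here do not tie a rat to each library. Differences between arms, between animals and between library preparations therefore cannot be told apart.

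The promoters of 3 of the genes are shown because they hold letters that match elements through which ATF4 and related factors are known to act. Each is a RefSeq window of the rat assembly GRCr8, from 250 bases before the annotated start to 50 after it, written 5′ to 3′ on the strand of the gene. The ATF4 element (C/EBP-ATF response element, CARE) was searched by its core TGATGNAA, and all motifs were searched on both strands. Its matches are in capitals in Trib3 and Chac1, where it lies on the opposite strand, 21 and 167 bases before the start. In Ppp1r15a, the capitals mark the matches to TGACGT, the half-site bound by CREB and ATF proteins, which begins 66 bases before the start and overlaps its own match on the opposite strand.
Trib3, chr3:161275484-161275783, minus strand: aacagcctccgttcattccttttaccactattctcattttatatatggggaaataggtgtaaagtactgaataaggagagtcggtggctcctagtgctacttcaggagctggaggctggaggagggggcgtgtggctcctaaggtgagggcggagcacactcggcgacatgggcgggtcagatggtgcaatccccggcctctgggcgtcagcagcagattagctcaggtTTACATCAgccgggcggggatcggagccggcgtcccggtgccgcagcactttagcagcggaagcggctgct
Chac1, chr3:126795881-126796180, plus strand: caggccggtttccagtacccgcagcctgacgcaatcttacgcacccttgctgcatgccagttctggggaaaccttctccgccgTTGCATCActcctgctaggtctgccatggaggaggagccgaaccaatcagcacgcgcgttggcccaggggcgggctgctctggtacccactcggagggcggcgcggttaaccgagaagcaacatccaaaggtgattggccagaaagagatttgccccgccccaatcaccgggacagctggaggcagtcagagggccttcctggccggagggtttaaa
Ppp1r15a, chr1:105139547-105139846, minus strand: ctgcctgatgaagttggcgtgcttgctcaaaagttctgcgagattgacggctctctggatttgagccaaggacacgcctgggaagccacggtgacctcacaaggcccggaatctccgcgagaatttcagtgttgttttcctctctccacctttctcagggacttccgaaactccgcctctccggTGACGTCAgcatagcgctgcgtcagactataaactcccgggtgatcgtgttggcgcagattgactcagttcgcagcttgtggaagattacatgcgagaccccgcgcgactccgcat

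All 8 genes had a window. The CARE core was present in 2 of 8, against 3.98% of all 33469 windows, and TGACGT in 1 of 8, against 7.94%. ACGTG, the core of the hypoxia element, was present in 4 of 8 (Atf4, Ddit3, Asns and Ddit4), against 19.3%, and CCAAT in 4 of 8 (Ddit3, Sesn2, Chac1 and Ddit4), against 37.5%. In Atf4 a match to ACGTG on each strand overlaps, 82 and 81 bases before the start. A match is a stretch of letters and not a shown site, and a window without one says only that these letters are not within it.

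Library size ranged from 95954800 UMIs (TOE 4d 24h) to 144146202 UMIs (TOE 2d 4h), over 12451 to 17187 barcodes, and pairs of libraries shared 40 to 110 cell barcodes. After filtering, 110487 cells fell into 31 clusters, of which 26 were named as 12 classes from marker genes. B-cell-like cells made up 40.4% to 57.7% of a library, neutrophil-like cells 6.63% to 23.6%, monocyte-like cells 5.20% to 16.2% and mesenchymal-like cells 0.388% to 3.52% (63 to 497 cells), so the tissue held mostly marrow cells. These 4 classes carry the comparisons. The 5 unnamed clusters held 15.6% of cells: a collagen-led cluster of few UMIs per cell (0.799% to 8.98% of a library), a cluster led by Ms4a1 and major histocompatibility genes (3.10% to 9.92%), a cluster led by Treml4 (0.0587% to 2.07%), a C1qa-led cluster (0.0839% to 0.720%) and a cluster with markers of several classes, which took 13.4% of the cells in TO 2d 4h, 2.26% in TOE 2d 4h and at most 0.113% elsewhere.

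TOE 4d 24h stood apart from the other 7 libraries. Its B-cell-like cells lay mainly in cluster 26, with Kcnb2 and Rag1 among its leading genes, which held 3410 of them and 7 to 54 cells of any other library. Its neutrophil-like cells lay mainly in clusters 14 and 23, and its monocyte-like cells in cluster 16 (575 cells) rather than cluster 18 (45 cells, against 885 to 1750 elsewhere). Free RNA differed too. Haemoglobin RNA in B-cell-like cells, which should hold none, was 12.9 CPM (UMIs of a gene per 1e6 UMIs) in TOE 4d 24h and 374 to 1493 CPM elsewhere, and the 14 erythroid markers together gave 62.6 CPM against 459 to 1659 CPM. The 12 neutrophil markers in the same cells gave 3623 CPM against 1015 to 1980 CPM, with no marker of either list at 0 in any library. Depth and mitochondrial share did not stand apart in B-cell-like cells, at a median of 4344 UMIs per cell (4161.5 to 4908.5 over all libraries) and 3.21% (2.04% to 4.59%). The part of these differences in the results below was not tested.

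A level in CPM is the summed UMIs of a gene in the cells of a class and library, relative to all UMIs of those cells. Intervals are exact Poisson intervals at 95% and cover counting error only, not the spread between animals. Across the named classes, the genes differed in where they were highest. Ddit3 had its highest median over the 8 libraries in B-cell-like cells, at 477 CPM (139 to 562 CPM), and its lowest in erythroid-like cells, at 63.3 CPM (27.6 to 74.1 CPM). The order of the classes next to each other did not hold in every library, and the range of neutrophil-like cells (156 to 484 CPM) overlapped that of B-cell-like cells.

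Trib3 and Sesn2 were highest in neutrophil-like cells. The median of Trib3 was 42.1 CPM there (16.7 to 56.8 CPM), against 19.8 CPM in mast-cell/basophil-like cells, 14.6 CPM in B-cell-like cells and 4.31 CPM in mesenchymal-like cells. Sesn2 had a median of 81.3 CPM in neutrophil-like cells (28.4 to 125 CPM), with monocyte-like cells next among the larger classes at 52.7 CPM (7.94 to 80.3 CPM). Both ranges overlapped those of their neighbours.

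Asns was the gene most tied to a class. Erythroid-like cells had a median of 147 CPM (87.2 to 256 CPM), and their lowest library stood above the highest library of every other class, which was 64.4 CPM in mast-cell/basophil-like cells. Granulocyte-monocyte progenitor-like cells followed among classes present in all libraries, at 31.9 CPM (16.1 to 40.4 CPM), and B-cell-like cells were lowest at 5.27 CPM (2.31 to 12.6 CPM). Within the erythroid class the level differed between its 2 clusters, with 282 CPM in the haemoglobin-led cluster 20 and 103 CPM in the Car1-led cluster 21 over all libraries.

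Among the named classes, Ppp1r15a was highest in macrophage-like cells (median 315 CPM, 193 to 336 CPM). Endothelial-like cells followed (292 CPM, 248 to 347 CPM over 7 libraries), with a range that overlapped. The unnamed Treml4-led cluster stood above both, with a median of 644 CPM (446 to 822 CPM over 7 libraries). Ppp1r15a varied most within the erythroid class, from 21.2 CPM in TOE 4d 24h to 364 CPM in TO 2d 4h. Cluster 20 held 435 CPM of it and cluster 21 held 61.2 CPM, and TOE 4d 24h had 1 cell of cluster 20 and 84 of cluster 21. Within cluster 21 the gene ran from 21.3 CPM, again in TOE 4d 24h, to 89.3 CPM. Ddit4 was higher in endothelial-like and T/NK-cell-like cells (medians 132 and 103 CPM) than in monocyte-like cells (13.2 CPM, 4.36 to 17.6 CPM), and those ranges did not overlap. Chac1 was low in most classes. Its median was 73.9 CPM in plasma-cell-like cells, which had 20 cells in only 2 libraries, 13.1 CPM in mesenchymal-like cells (6.03 to 84.3 CPM) and 2.02 CPM in macrophage-like cells. Atf4 varied least between classes, with medians of 198 CPM in erythroid-like cells to 453 CPM in plasma-cell-like cells.

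**Figure D1:**
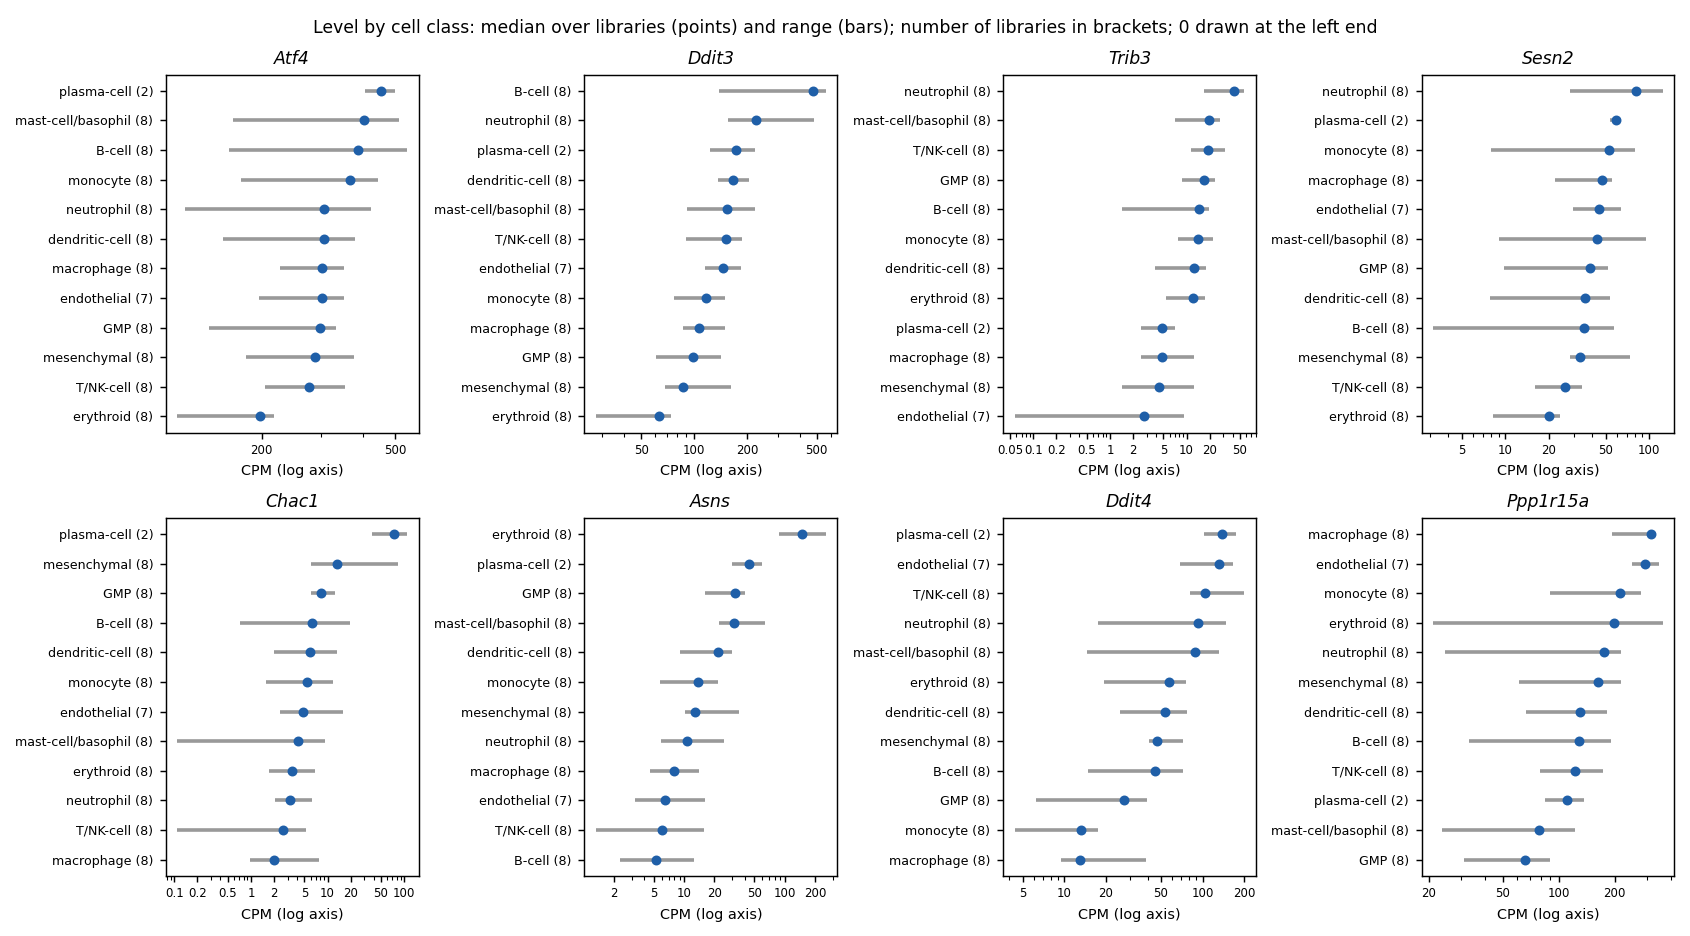
Level of each gene (CPM, log axis) by cell class; points are the median over libraries, bars the range, and the number of libraries with at least 20 cells stands in brackets (GMP, granulocyte-monocyte progenitor; a range that reaches 0 is drawn to the left end). Asns stands highest in erythroid-like cells (median 147 CPM), Ddit3 in B-cell-like cells (477 CPM), and Trib3 and Sesn2 in neutrophil-like cells (42.1 and 81.3 CPM).

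Within the B-cell-like class the genes also differed between clusters, read here as medians over libraries with at least 20 cells of the cluster. In clusters 0 and 2, both with Rag1 among their leading genes, the median of Ddit3 was 664 CPM (412 to 754 CPM) and 766 CPM (433 to 888 CPM). It was 198 CPM (88.7 to 287 CPM) in cluster 7, with Igll1 and Rag2 among its leading genes. Clusters 9 and 26 also had Rag1 among their leading genes, but lower Ddit3 medians. These were 250 CPM (136 to 442 CPM) and 393 CPM (141 to 652 CPM over 4 libraries). Sesn2 had medians of 68.3 and 65.5 CPM in clusters 0 and 2 and 18.2 CPM in cluster 7, with ranges that overlapped. In clusters 9 and 26 its medians were 20.9 and 43.9 CPM. Ppp1r15a had its highest median in cluster 2, at 298 CPM (148 to 409 CPM). Neutrophil-like clusters differed as well. Cluster 24, with Stfa2l3 and Nos2 among its leading genes, had medians of 204 CPM of Ddit4 and 299 CPM of Ppp1r15a. The Ngp-led cluster 14 had 43.3 and 102 CPM, and cluster 23, with Mmp8 and Mmp9 among its leading genes, had 21.7 CPM (13.5 to 63.7 CPM) and 45.3 CPM (13.3 to 83.5 CPM).

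Across libraries, TOE 4d 24h was lowest for most genes in most classes. Over the 10 classes with 8 libraries and all 8 genes, it was the lowest library in 60 of 80 cases, and no other library was lowest in more than 6. Over all genes with at least 20 UMIs in these classes it was lowest in 19.7% of cases. For Ppp1r15a it was lowest in 10 of 10 classes, for Atf4 and Sesn2 in 9, for Trib3 in 8, for Ddit3 and Ddit4 in 7, for Asns in 6 and for Chac1 in 4. In the 4 main classes it lay below all other libraries in 27 of 32 cases, beside 18.1% of cases over all genes. The exceptions were Ddit3 in monocyte-like cells and Sesn2, Chac1, Asns and Ddit4 in mesenchymal-like cells.

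In B-cell-like cells, Atf4 was 159.5 CPM in TOE 4d 24h, 252 CPM in TOE 2d 4h, 364 CPM in TO 4d 4h, 381 CPM in TO 2d 4h, 392 CPM in TOE 4d 4h, 438 CPM in TO 2d 0h, 475 CPM in TO 4d 24h and 542 CPM in TOE 2d 24h. Ddit3 was 139 CPM in TOE 4d 24h and 232 CPM in TOE 2d 4h, and 437 to 562 CPM in the other 6 libraries. These 2 TOE libraries were thus the lowest for both transcription factor genes, while TOE 2d 24h was the highest.

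Sesn2 was 3.15 CPM in TOE 4d 24h and 24.5 CPM in TOE 2d 4h, then 28.8 CPM in TOE 2d 24h, 34.7 CPM in TO 4d 4h, 35.4 CPM in TO 2d 0h, 38.1 CPM in TO 4d 24h, 40.5 CPM in TO 2d 4h and 57.0 CPM in TOE 4d 4h. Chac1 was 0.725 CPM in TOE 4d 24h and 2.89 CPM in TOE 2d 4h, 5.19 to 8.91 CPM in the libraries TO 4d 4h, TO 2d 4h, TOE 4d 4h and TOE 2d 24h, and 19.0 and 19.8 CPM in TO 2d 0h and TO 4d 24h. Trib3 ran from 1.43 to 19.6 CPM, Asns from 2.31 to 12.6 CPM, Ddit4 from 14.9 to 72.5 CPM and Ppp1r15a from 33.1 to 191 CPM. In every one of these 8 genes the upper end of the interval in TOE 4d 24h lay below the lower ends of all other libraries.

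**Figure D2:**
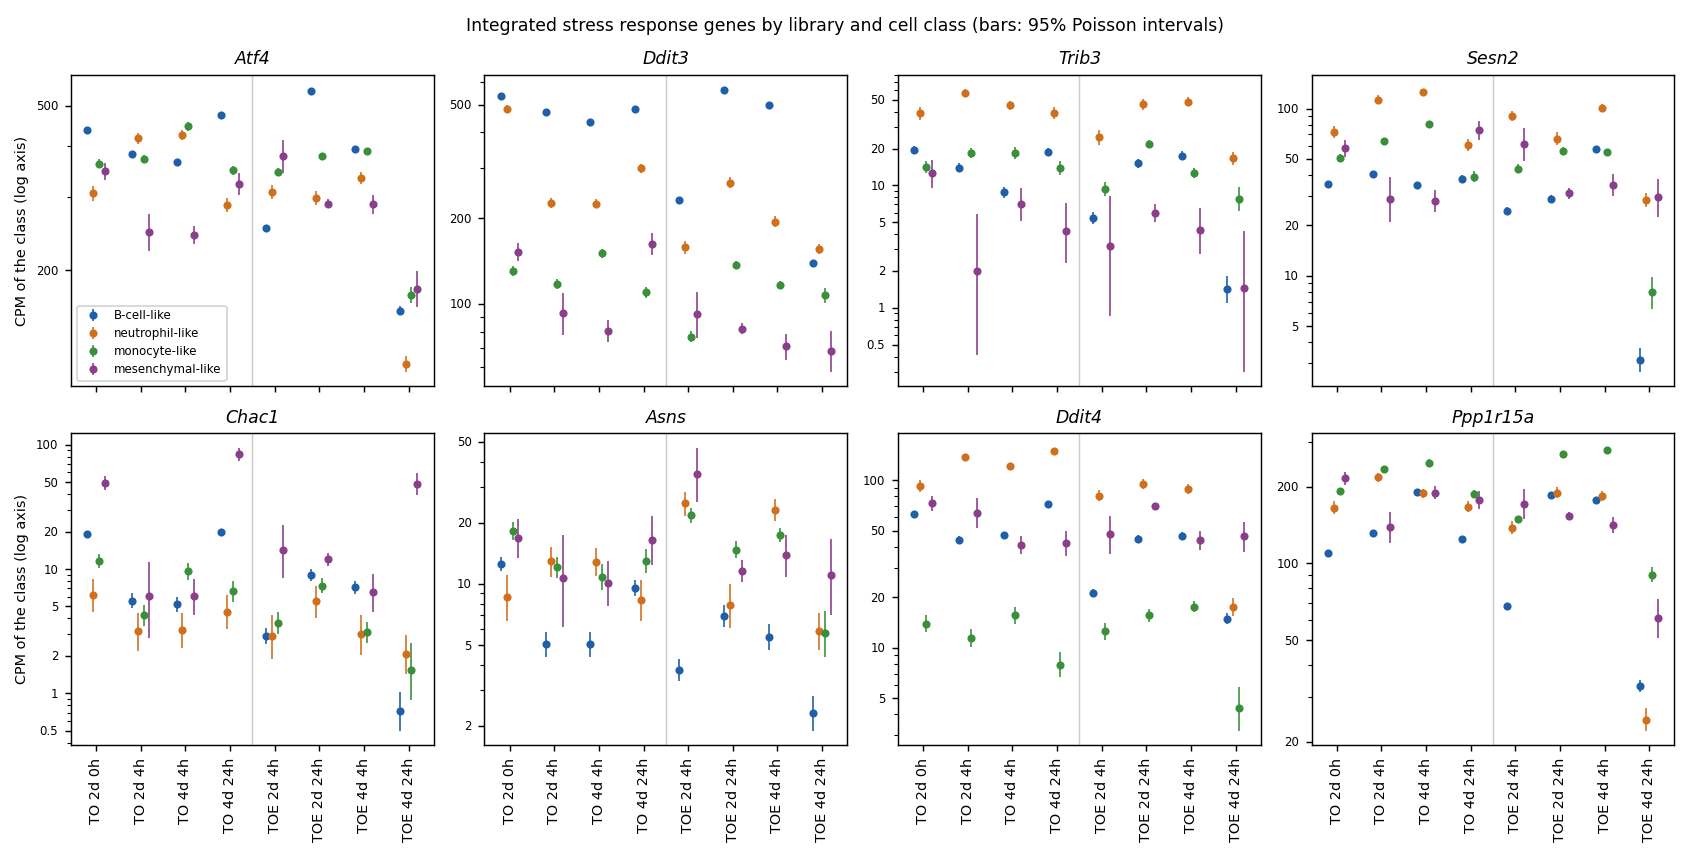
Level of each gene (CPM, log axis) in each library, with TO libraries left and TOE libraries right of the grey line; colours are the 4 main classes and bars 95% Poisson intervals. TOE 4d 24h is below the other 7 libraries in 27 of 32 gene and class cases.

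In neutrophil-like cells, Ddit4 was 17.6 CPM in TOE 4d 24h and 80.6 to 148 CPM in the other libraries. Ppp1r15a was 24.5 CPM against 138 to 217 CPM. Sesn2 was 28.4 CPM against 60.9 to 125 CPM, and Atf4 119 CPM against 287 to 424 CPM. All 4 left a gap between TOE 4d 24h and the nearest library, whereas for Ddit3 the nearest library, TOE 2d 4h, was at 158 CPM beside 156 CPM in TOE 4d 24h.

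Monocyte-like cells had 7.94 CPM of Sesn2 in TOE 4d 24h and 39.2 to 80.3 CPM elsewhere, 1.55 CPM of Chac1 against 3.10 to 11.7 CPM, and 90.5 CPM of Ppp1r15a against 149 to 279 CPM. Ddit3 did not follow, at 107 CPM within a range of 76.8 to 150 CPM. In mesenchymal-like cells, the collagen-rich stromal cells, Chac1 had another order of libraries, with 84.3 CPM in TO 4d 24h, 49.2 CPM in TO 2d 0h and 48.7 CPM in TOE 4d 24h, and 6.03 to 14.3 CPM in the other 5. Some markers of another cell type stood apart in TO 4d 24h. The 9 plasma-cell markers gave 2917 CPM in the mesenchymal-like cells of TO 4d 24h and 301 to 430 CPM elsewhere. Most of the sum was Igha, at 1489 CPM (4.34 to 34.1 CPM elsewhere), and Jchain, at 1173 CPM (2.45 to 40.0 CPM elsewhere). Mzb1 and Tnfrsf17 were also above every other library. Sdc1, at 7.94 CPM (33.7 to 114 CPM elsewhere), and Txndc5, at 111 CPM (118 to 217 CPM elsewhere), were below every other library. Xbp1, Prdm1 and Derl3 lay within the range of the others. Plasma-cell-like cells held 109 and 38.4 CPM of Chac1 in the 2 libraries that had 20 of them. The part of this signal in the value of Chac1 was not tested. Ppp1r15a was 61.2 CPM in TOE 4d 24h and 139 to 215 CPM elsewhere.

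The comparison of TOE with TO at 4d 24h asked how the genes stood 24 h after the day 4 session. A ratio was formed where a gene had at least 20 UMIs over the pair, with a prior of 0.5 UMI, and is given as log2 of TOE over TO with an exact conditional interval at 95% for counting error. In the 4 main classes, 22 of 31 ratios were past 2-fold lower in TOE, 0 were past 2-fold higher, and 30 were below 0, beside 7.23% lower and 15.7% higher over all genes of these classes. Trib3 in mesenchymal-like cells had too few UMIs.

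In B-cell-like cells all 8 genes were past 2-fold lower, with a median log2 ratio of -2.16. Over all 17623 genes tested there, 6.79% were past 2-fold lower and 18.1% past 2-fold higher, with a median of 0.19. Chac1 had the lowest ratio, at -4.75 (-5.33 to -4.26), then Trib3 at -3.71 (-4.12 to -3.36) and Sesn2 at -3.59 (-3.85 to -3.35). These are levels 26.9-fold, 13.1-fold and 12.04-fold higher in TO. Ddit4, the other mTORC1 brake, stood at -2.28 (-2.41 to -2.16), and asparagine synthetase, Asns, at -2.04 (-2.37 to -1.74). The phosphatase subunit gene Ppp1r15a was at -1.91, Ddit3 at -1.79 and Atf4 at -1.58 (-1.61 to -1.54), so the upstream factor had the ratio nearest to 0.

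In neutrophil-like cells 6 of 8 genes were past 2-fold lower and 0 higher, beside 11.2% lower and 13.6% higher of 12802 genes. Here Ddit4 led at -3.08 (-3.27 to -2.89) and Ppp1r15a followed at -2.77 (-2.94 to -2.61), while Atf4, Trib3, Chac1 and Sesn2 lay between -1.28 and -1.10. Ddit3 lay just inside the 2-fold line at -0.94, and Asns was at -0.51 (-0.96 to -0.05). The order of the genes thus differed from that in B-cell-like cells, with the stress-responsive Ddit4 and Ppp1r15a ahead of Chac1, Trib3 and Sesn2.

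Monocyte-like cells had 5 of 8 past 2-fold lower and 0 higher, beside 7.01% and 14.8% of 13702 genes. Sesn2 was at -2.30 (-2.65 to -1.97) and Chac1 at -2.06 (-2.95 to -1.34). Atf4 and Ppp1r15a were only just past the line, 2.01-fold and 2.06-fold higher in TO, and Asns was at -1.17. Ddit3 was at -0.03 (-0.14 to 0.07). In mesenchymal-like cells 3 of 7 were past 2-fold lower and 0 higher, beside 3.55% and 15.1% of 10910 genes: Ppp1r15a at -1.53 (-1.83 to -1.26), Sesn2 at -1.32 (-1.76 to -0.92) and Ddit3 at -1.24 (-1.53 to -0.98). Ddit4 was at 0.14 (-0.26 to 0.52) there, the 1 ratio of 31 above 0. These cells numbered 117 in TO and 86 in TOE, all in 1 cluster. Marker lists differed within the same cells: the plasma-cell list gave 2917 CPM in TO, mostly Igha and Jchain, and 301 CPM in TOE. The 12 monocyte markers gave 1247 and 3061 CPM, and the 14 erythroid markers 878 and 34.7 CPM, with 0 to 2 markers of a list at 0. The 14 mesenchymal markers of the class itself gave 271935 and 197545 CPM. The erythroid list was lowest in TOE 4d 24h in the myeloid classes too, at 35.8 CPM in neutrophil-like cells (1110 to 2634 CPM elsewhere) and 65.4 CPM in monocyte-like cells (718 to 1471 CPM elsewhere). Their part in these ratios was not tested.

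The smaller classes were then added, read in the same way. Over 10 classes, with the 4 main ones included, 44 of 74 ratios were past 2-fold lower, 1 was past 2-fold higher and 69 were below 0. Over all genes tested in these classes, 7.16% were lower and 13.7% higher. Erythroid-like cells gave 6 of the 44, and their cluster 20 held 549 cells in TO and 1 in TOE. The ratio that was higher was Ddit4 in macrophage-like cells, at 12.4 CPM in TO and 39.1 CPM in TOE, from 22 and 14 UMIs in 112 and 27 cells. In granulocyte-monocyte progenitor-like cells Ddit4 was 28.0 CPM in TO and 6.19 CPM in TOE, and Sesn2 26.8 and 9.82 CPM. In mast-cell/basophil-like cells Asns was 25.9 CPM in TO and 32.8 CPM in TOE, while Sesn2 was 48.6 and 9.08 CPM.

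**Figure D3:**
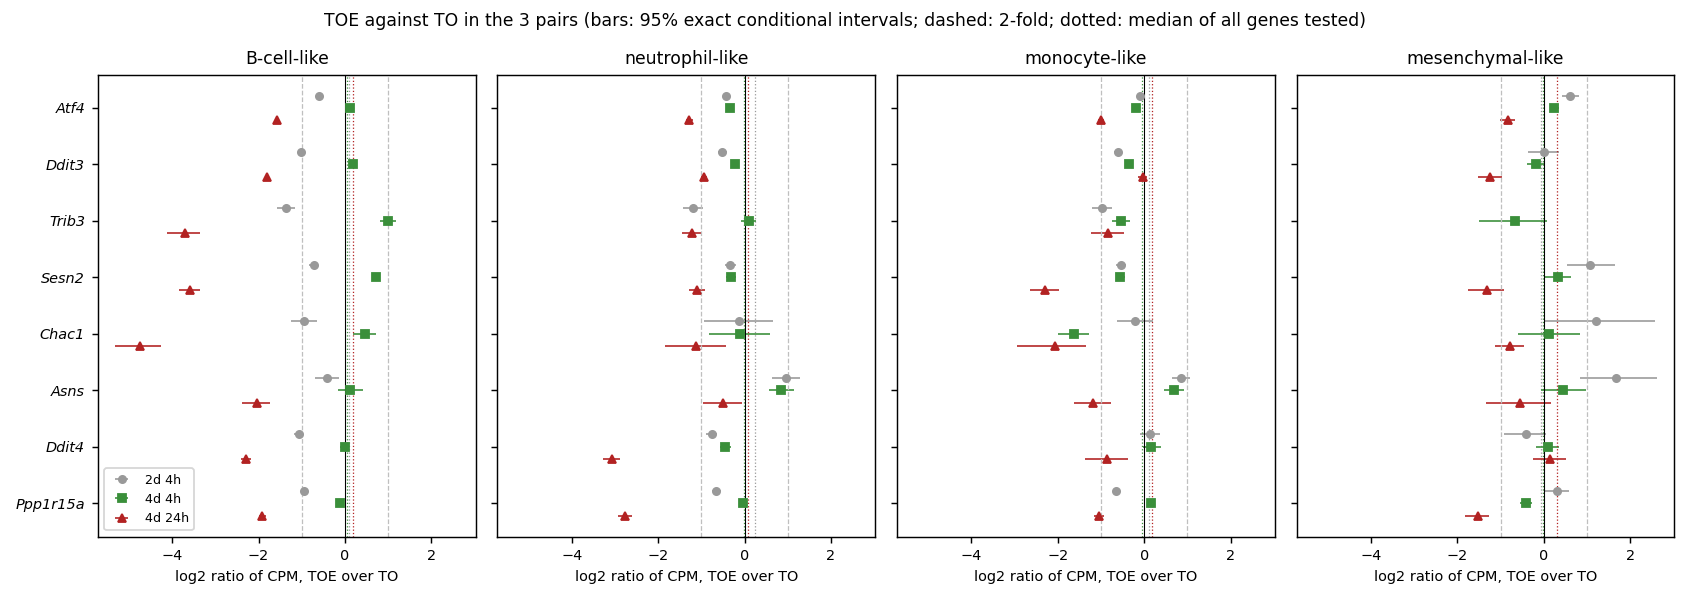
Log2 ratio of CPM, TOE over TO, of each gene in the 4 main classes; grey circles are 2d 4h, green squares 4d 4h and red triangles 4d 24h, bars are 95% exact conditional intervals, dashed lines mark 2-fold and dotted lines the median of all genes tested. At 4d 24h all 8 genes of B-cell-like cells lie left of the 2-fold line, from -1.58 for Atf4 to -4.75 for Chac1.

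Because TOE 4d 24h filled other clusters than TO 4d 24h, the pair was also read within clusters that had at least 50 cells in both libraries. In the 10 B-cell-like clusters, 53 of 67 ratios were past 2-fold lower, 1 was past 2-fold higher and 64 were below 0. Over all genes tested within these clusters, 9.96% of ratios were past 2-fold lower and 12.8% higher. The gene past 2-fold higher was Ppp1r15a in cluster 1, at 107 CPM in TO and 274 CPM in TOE, from 659 and 58 cells. The large cluster 17 had Igll1 and the histone genes H2ac10 and H1f1 among its leading genes. There Sesn2 was 24.5 CPM in TO and 2.95 CPM in TOE, Chac1 17.7 and 1.23 CPM, and Ddit4 103 and 21.5 CPM. Ppp1r15a was 126 and 80.4 CPM (log2 ratio -0.65). In cluster 0, with 2559 cells in TO and 136 in TOE, Sesn2 was 77.8 and 5.66 CPM, from 819 and 3 UMIs. Its ratio was -3.56 (-6.06 to -2.23), but Ddit4 was at -0.08 (-1.06 to 0.66) and Ppp1r15a at 0.41 (0.06 to 0.72). Sesn2 was thus lower in a cluster where Ppp1r15a was not, though its level in TOE rests on 3 UMIs.

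In neutrophil-like cells the clusters did not all share the ratio of the class. Over 3 clusters, 14 of 23 ratios were past 2-fold lower and 0 higher, beside 11.6% and 9.49% of the ratios of all genes. In cluster 14, which had 497 cells in TO and 1019 in TOE, Ddit3 was at -1.75 and Ppp1r15a at -2.62, and in cluster 23, with 145 and 1438 cells, they were at -1.40 and -2.66. In cluster 24, with 1476 and 355 cells, Ddit4 was past 2-fold lower at -1.34 (-1.61 to -1.09) and Ppp1r15a was at -0.94. There Atf4 was at -0.18, Sesn2 at 0.09 (-0.22 to 0.39), Ddit3 at 0.52 (0.40 to 0.63) and Trib3 at 0.70 (0.34 to 1.03).

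For monocyte-like cells only cluster 16 had enough cells, 72 in TO and 575 in TOE, and 3 of 7 ratios were past 2-fold lower there and 0 higher, beside 4.67% and 6.03% of all genes: Ddit4 at -1.57, Asns at -1.38 and Sesn2 at -1.25. Atf4 was at -0.24 and Ppp1r15a at -0.83. With the clusters of each class weighted alike in both libraries, 16 of 31 ratios of the 4 classes were past 2-fold lower, 0 were past 2-fold higher and 27 were below 0, beside 4.97% lower and 9.80% higher of all genes. Ppp1r15a was then at -0.80 in B-cell-like cells, and Atf4, Sesn2, Chac1 and Trib3 were at -0.85, -0.72, -0.68 and -0.34 in neutrophil-like cells. In monocyte-like cells Atf4 was at -0.35 and Ppp1r15a at -0.25, while Ddit3, Trib3 and Ddit4 lay above 0, at 0.11, 0.11 and 0.47. The weighted reading took clusters of at least 20 cells in both libraries. It therefore held cluster 18, with 1028 cells in TO and only 45 in TOE. Within cluster 16 alone, 7 of 7 ratios were below 0.

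**Figure D4:**
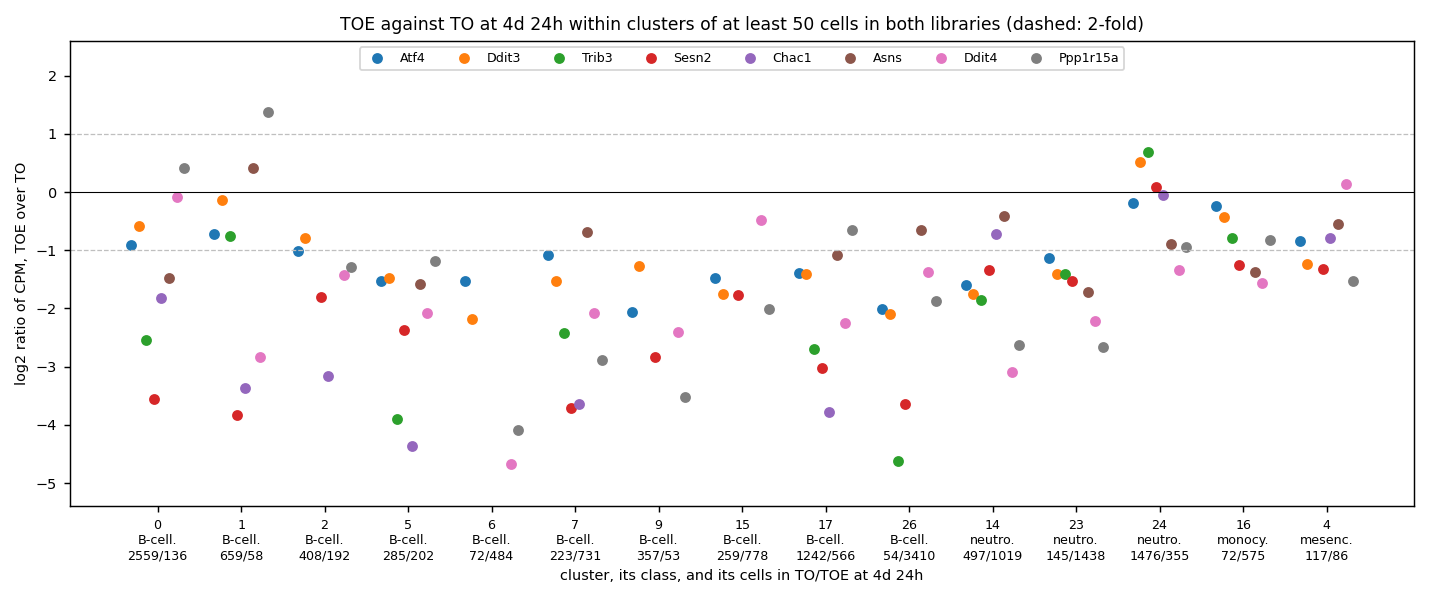
Log2 ratio of CPM at 4d 24h, TOE over TO, of each gene within clusters of at least 50 cells in both libraries; the axis names the cluster, its class and its cells in TO and TOE, genes at 0 UMIs in a library are drawn with the prior of 0.5 UMI, and dashed lines mark 2-fold. B-cell-like clusters lie mostly below the lower line (53 of 67 ratios), whereas cluster 24 of neutrophil-like cells has Ddit3 and Trib3 above 0, at 0.52 and 0.70.

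At 4d 4h, 4 h after the same session, fewer ratios of the classes were past 2-fold. Of 32 ratios in the 4 main classes 1 was past 2-fold lower, 0 were past 2-fold higher and 16 were below 0, beside 3.01% lower and 3.50% higher over all genes. Over 11 classes, 1 of 82 was past 2-fold lower and 1 higher, beside 3.12% and 3.20% of all genes. The higher ratio was Chac1 in dendritic-cell-like cells, from 5 UMIs in TO and 17 in TOE (log2 ratio 1.46, 0.06 to 3.35). In B-cell-like cells 0 of 8 were past 2-fold in either direction, beside 1.44% lower and 2.88% higher of 17397 genes, with Trib3 just inside the line at 0.99 (0.80 to 1.18), Sesn2 at 0.72 (0.62 to 0.81) and Atf4 at 0.11.

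Neutrophil-like cells also had 0 of 8 past 2-fold, beside 2.33% lower and 3.22% higher of 12623 genes, and their Asns was at 0.85 (0.56 to 1.15). Monocyte-like cells had 1 of 8 past 2-fold lower, beside 2.88% lower and 3.41% higher of 14982 genes. It was Chac1, at 9.64 CPM in TO and 3.10 CPM in TOE (log2 ratio -1.64, -1.99 to -1.29), while Asns of the same cells was at 0.68 (0.45 to 0.93). Markers of other cells differed there too. The 12 neutrophil markers gave 3218 CPM in TO and 7314 CPM in TOE, the 12 macrophage markers 110 and 224 CPM, and the 12 dendritic-cell markers 1010 and 758 CPM. Their part was not tested. In mesenchymal-like cells 0 of 8 were past 2-fold, beside 5.88% lower and 4.68% higher of 13224 genes, and Trib3 lay farthest from 0 at -0.67 (-1.50 to 0.08).

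The pair was read within clusters of at least 50 cells in both libraries too. In the 9 B-cell-like clusters 0 of 63 were lower and 4 higher, beside 1.65% and 2.68% of all genes. In cluster 0, with 1572 cells in TO and 2158 in TOE, these were Trib3 at 1.06 (0.76 to 1.36) and Chac1 at 1.05 (0.53 to 1.62). Sesn2 in cluster 6 (1.07, from 11 and 17 UMIs) and Asns in cluster 7 (1.09, from 9 and 13 UMIs) had intervals that reached below 0. Monocyte-like clusters differed from each other. In cluster 16, with 253 and 406 cells, Asns was at 1.66, Chac1 at 1.33 (from 3 and 17 UMIs) and Ddit4 at 1.29 (0.69 to 1.98), whereas in cluster 18, with 885 and 1750 cells, Chac1 was at -1.86 (-2.24 to -1.49). Over both clusters 1 of 16 was thus lower and 3 higher, beside 2.63% and 3.65%. In the 3 neutrophil-like clusters 0 of 21 were past 2-fold in either direction, beside 2.87% lower and 3.66% higher.

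At 2d 4h, 4 h after the first session, 4 of 31 ratios in the main classes were past 2-fold lower and 3 past 2-fold higher, with 23 below 0, beside 4.63% lower and 7.23% higher over all genes. Centred on the median of all genes tested, 7 were lower and 3 higher, beside 5.99% and 5.46% of all genes. In B-cell-like cells 3 of 8 were past 2-fold lower and 0 higher, beside 6.08% and 6.52% of 17514 genes. They were Trib3 at -1.36 (-1.57 to -1.17), Ddit4 at -1.07 (-1.17 to -0.96) and Ddit3 at -1.03 (-1.06 to -0.99). None of these 3 was past 2-fold under every one of 13 alternatives. Trib3 was in 12, Ddit4 in 10 and Ddit3 in 9, and with the clusters weighted alike Trib3 was at -0.65 and Ddit3 at -0.63. The other 5 lay between -0.95 (Ppp1r15a) and -0.42 (Asns), so every gene was lower in TOE over the class. All 8 were also lower in TOE 2d 4h than in each of the 3 other libraries taken at 4 h, with intervals that did not touch, and 31.9% of all genes were lowest in that library among these 4.

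The B-cell-like cells of this pair filled the clusters in other shares in the 2 arms. Cluster 9 held 326 cells in TO and 2405 in TOE, cluster 7 held 178 and 1162, and cluster 15 held 321 and 1090, while cluster 0 held 2329 and 1615. Over the 9 clusters of at least 50 cells in both, 22 of 64 ratios were past 2-fold lower, 0 higher and 54 below 0, beside 5.01% lower and 5.04% higher of all genes. Of these 22, cluster 7 gave 7, cluster 15 gave 6 and cluster 9 gave 4, and clusters 0, 1 and 2 gave 0. Ddit3 was at -1.70 in cluster 7, -1.23 in cluster 9 and -1.95 in cluster 15, but at -0.38 in cluster 0 and 0.22 (0.09 to 0.35) in cluster 1. Cluster 1 also had Atf4 at 0.23 (0.11 to 0.36) and Ppp1r15a at 0.29 (0.06 to 0.53), and cluster 0 had Sesn2 at 0.25 (0.07 to 0.44) and Chac1 at 0.92. The direction over the class was therefore not that of every cluster.

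Neutrophil-like cells had 1 of 8 past 2-fold lower, Trib3 at 56.8 CPM in TO and 24.7 CPM in TOE (log2 ratio -1.20, -1.43 to -0.97), and 0 higher, beside 3.91% lower and 12.6% higher of 12265 genes. Trib3 was past 2-fold in 12 of 13 alternatives. Asns went the other way, at 12.9 CPM in TO and 24.9 CPM in TOE (0.95, 0.63 to 1.27). Cluster 24 held 986 cells in TO and 377 in TOE, and cluster 23 held 67 and 225. Over 3 clusters 5 of 22 ratios were past 2-fold lower and 2 higher, beside 5.17% and 12.8% of all genes. Ddit3, for example, was at -2.19 in cluster 23 and 0.09 in cluster 24. The 13 B-cell markers gave 443 CPM in the neutrophil-like cells of TO 2d 4h and 1376 CPM in those of TOE 2d 4h, the highest of the 8 libraries, with 0 markers at 0.

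Handling-sensitive and hormone-responsive lists also had lower medians in the B-cell-like and neutrophil-like cells of this pair. Of the immediate-early genes, which respond within minutes to stimuli and to tissue handling, 3 of 18 were past 2-fold lower and 0 higher in B-cell-like cells (median -0.75), and 4 of 18 and 0 in neutrophil-like cells (-0.75). Of the glucocorticoid-responsive genes 1 of 10 was lower in the former (-0.69) and 2 of 9 in the latter (-0.69), and 0 were higher. Over all genes 6.08% and 3.91% were past 2-fold lower. In monocyte-like cells 0 of 18 immediate-early genes (-0.25) and 1 of 10 glucocorticoid-responsive genes (-0.31) were lower, beside 2.97%. Mesenchymal-like cells had 0 of 18 immediate-early genes past 2-fold (0.09). Of 9 glucocorticoid-responsive genes there, 1 was lower and 1 higher (0.13), beside 5.39% and 3.96%. The part of these lists and of the B-cell markers in the ratios of the 8 genes was not tested.

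In monocyte-like cells 0 of 8 were past 2-fold, beside 2.97% lower and 5.73% higher of 14529 genes. Trib3 was at -0.97 (-1.21 to -0.75) and Asns at 0.85 (0.65 to 1.06), so Asns had the highest ratio of the 8 genes in both myeloid classes. Within clusters 3 of 15 ratios were past 2-fold lower and 0 higher, beside 4.41% and 4.28% of all genes. All 3 lay in cluster 16, which held 138 cells in TO and 527 in TOE: Ppp1r15a at -2.02 (-2.29 to -1.76), Ddit3 at -1.77 (-2.01 to -1.53) and Trib3 at -1.41 (-2.47 to -0.26). In cluster 18, with 1463 and 1076 cells, these were at -0.39, -0.43 and -0.76.

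Mesenchymal-like cells had 0 of 7 past 2-fold lower and 3 of 7 higher at 2d 4h, beside 5.39% lower and 3.96% higher of 9878 genes. Asns was 10.7 CPM in TO and 34.9 CPM in TOE (1.67, 0.85 to 2.63), Chac1 6.04 and 14.3 CPM (1.20, 0.01 to 2.58) and Sesn2 28.9 and 61.1 CPM (1.08, 0.53 to 1.66). Atf4 was at 0.61 (0.41 to 0.81) and Ddit4 at -0.42 (-0.91 to 0.06). These values rest on few cells, 66 in TO and 63 in TOE, and on 9 and 18 UMIs for Chac1. The erythroid markers gave 3091 CPM in these cells in TO and 540 CPM in TOE, and the 14 mesenchymal markers of the class itself 128130 and 176716 CPM. The part of both lists was not tested. Trib3 had too few UMIs here as well.

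In the 4 main classes the median over all genes tested was itself off 0 by more than 0.1 in 5 comparisons: at 4d 24h it was 0.30 for mesenchymal-like, 0.19 for B-cell-like and 0.19 for monocyte-like cells, and at 2d 4h 0.24 for neutrophil-like and 0.12 for monocyte-like cells. With ratios taken relative to it, 27 of 31 were past 2-fold lower at 4d 24h, 0 were higher and 31 were below 0, beside 9.36% lower and 11.7% higher of all genes. The ratio of Ddit4 in mesenchymal-like cells then turned from 0.14 to -0.16.

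Hour of collection crossed arm and day, with 4 libraries taken at 4 h and 4 at 0 h or 24 h. In neutrophil-like cells 3 of 8 genes had every 4 h library above every other library, and 0 had every one below, beside 17.9% of 15995 genes that did not overlap in either direction. Sesn2 was 90.1 to 125 CPM at 4 h and 28.4 to 72.4 CPM otherwise, Asns 12.9 to 24.9 CPM against 5.85 to 8.62 CPM, and Atf4 308 to 424 CPM against 119 to 307 CPM. In B-cell-like, monocyte-like and mesenchymal-like cells all 8 genes overlapped, so 0 of 8 did not overlap, beside 21.6% of 21150, 19.3% of 17986 and 15.3% of 16596 genes.

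Of the 29 cases that overlapped with all libraries, 24 also did without TOE 4d 24h and 5 did not. Without that library 8 of 32 cases did not overlap: neutrophil-like Atf4, Sesn2 and Asns were higher at 4 h, neutrophil-like Ddit3 and Chac1 lower, and B-cell-like Atf4, Chac1 and Asns lower. B-cell-like Atf4, for example, was 252 to 392 CPM at 4 h and 438 to 542 CPM in the 3 libraries left. The share of all genes that did not overlap was also larger with 1 library fewer. It was 37.6% for B-cell-like cells (3 of 8 of these genes), 29.2% for neutrophil-like (5 of 8), 31.2% for monocyte-like (0 of 8) and 21.1% for mesenchymal-like cells (0 of 8). The B-cell-like count was thus near the share of all genes.

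The wider pathway was read through 13 gene lists, over the sums of each class and not within clusters. The eIF2 kinases, the eIF2 and eIF2B subunits and the other eIF2 phosphatase subunits had 0 of 4, 0 of 8 and 0 of 4 past 2-fold lower in B-cell-like cells at 4d 24h. Their medians were 0.42, -0.17 and -0.42, beside 0.19 for all genes tested. Of all genes in these cells 6.79% were past 2-fold lower and 18.1% higher. Of the 4 kinase genes 1 was past 2-fold higher. It was Eif2ak3, which encodes the endoplasmic reticulum sensor PERK, at 67.2 CPM in TO and 149.8 CPM in TOE (1.16, 1.10 to 1.22). The lists downstream of ATF4 had lower medians. Of 13 aminoacyl-tRNA synthetases, 9 were past 2-fold lower and 0 higher (median -1.19). Of the 11 tested among other ATF4 and CHOP targets 6 were lower (median -1.50), and of 17 genes of amino acid synthesis and transport 7 were lower (median -0.81). The lowest ratio over the lists was that of Bbc3, which encodes the pro-apoptotic protein PUMA, at 70.8 CPM in TO and 7.10 CPM in TOE (-3.32, -3.49 to -3.15). Of the remaining lists of these cells, 2 of 8 ATF4 partners and relatives (median -0.86), 2 of 12 mTORC1 brakes and p53 targets (0.10), 4 of 11 heat shock chaperones (-0.59), 2 of 10 glucocorticoid-responsive genes (-0.55) and 2 of 12 hypoxia and glycolysis genes (-0.12) were past 2-fold lower and 0 higher.

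The lists downstream of ATF4 also lay lower over the neutrophil-like class at 4d 24h. There, 8 of 13 synthetases (median -1.09), 9 of 14 amino acid genes (median -1.24) and 7 of 10 other targets (median -1.25) were past 2-fold lower. Of the latter lists 1 gene each was higher, beside 11.2% lower and 13.6% higher of all genes. Neutrophil-like cells lay mostly in cluster 24 in TO (1476 cells) and in clusters 14 and 23 in TOE (1019 and 1438 cells). The part of these cluster shares in the list values was not tested. In monocyte-like cells 0 of 13 synthetases, 2 of 15 amino acid genes and 5 of 11 other targets were lower and 0 higher. All genes of these cells had 7.01% lower and 14.8% higher. In mesenchymal-like cells 0 of 13, 2 of 15 and 3 of 12 were lower and 0, 1 and 0 higher, with a synthetase median of 0.05. The shares of all genes were 3.55% and 15.1%. Immediate-early genes lay lower at 4d 24h too: 10 of 18 were past 2-fold lower in B-cell-like cells (median -1.07), 9 of 18 in the neutrophil-like class (-1.01) and 9 of 18 in the mesenchymal-like class (-1.16). These stood beside 6.79%, 11.2% and 3.55% of all genes. Monocyte-like cells had 4 of 18 lower and 4 higher (-0.17), beside 7.01% and 14.8%. Their part in the values of the 8 genes was not tested.

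The lists downstream of ATF4 had other values in the earlier pairs. At 2d 4h in neutrophil-like cells, 5 of 15 amino acid genes were past 2-fold higher and 1 lower (median 0.42), 1 of 13 synthetases was higher and 0 lower (0.53), and 0 of 10 other targets were higher and 1 lower (-0.45). All genes of these cells had 12.6% higher, 3.91% lower and a median of 0.24. In mesenchymal-like cells 2 of 14 amino acid genes were higher and 0 lower (0.66), beside 3.96% and 5.39% of all genes. The synthetases had a median of 0.37 there. B-cell-like cells of that pair had 5 of 16 amino acid genes past 2-fold lower and 0 higher (-0.45), with synthetases at -0.33, beside 6.08% and 6.52%. Monocyte-like cells had a synthetase median of 0.23, with 1 of 16 amino acid genes past 2-fold higher and 0 lower, beside 5.73% and 2.97%. At 4d 4h the medians of the 3 lists lay between -0.16 and 0.23 in the 4 main classes.

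Chaperones of the endoplasmic reticulum and the IRE1 and ATF6 arms of the unfolded protein response had other values than the 8 genes. In monocyte-like cells their median was 0.76 at 2d 4h and 0.62 at 4d 4h, with 2 of 18 past 2-fold higher and 0 lower each time. All genes of these cells had medians of 0.12 and -0.05, with 5.73% and 3.41% past 2-fold higher. Creld2, a chaperone gene of that list, was 26.1 CPM in TO and 87.3 CPM in TOE at 2d 4h, and 21.5 and 68.8 CPM at 4d 4h. Neutrophil-like cells had a median of 0.64 at 2d 4h with 4 of 18 higher, beside 12.6% higher and a median of 0.24 over all genes. At 4d 4h it was 0.62 with 4 of 18 higher, beside 3.22% and -0.01, and Sdf2l1 was 12.3 CPM in TO and 37.9 CPM in TOE at 4d 4h. The median of the 8 genes at the same times was -0.37 and -0.28 in monocyte-like cells and -0.47 and -0.16 in neutrophil-like cells. In the 2 other main classes the chaperone list lay nearer to 0 at 2d 4h and 4d 4h. Its medians were 0.28 and 0.13 in B-cell-like cells and 0.01 and -0.06 in mesenchymal-like cells. There 0 of 18 were past 2-fold higher each time, beside 6.52% and 2.88%, and 3.96% and 4.68%, of all genes. At 4d 24h the chaperone list stood at -0.20 in B-cell-like cells, with 4 of 18 lower, at -0.33 in neutrophil-like cells, with 3 of 18 lower, and at -0.19 in monocyte-like cells, with 1 of 18 lower, and 0 were higher in these 3 classes. The shares of all genes lower were 6.79%, 11.2% and 7.01%. In mesenchymal-like cells the list stood at 0.56, with 2 of 18 higher, beside 15.1% of all genes.

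The other genes with the highest or lowest ratio of a comparison were spread over the lists. In B-cell-like cells they were Nupr1 (1.78) and the immediate-early gene Egr2 (-1.59) at 2d 4h, and the glycine transporter gene Slc6a9 (1.07) and Adm (-0.57) at 4d 4h. In neutrophil-like cells they were Eif2b3 (2.40) and the co-chaperone gene Bag3 (21.1 CPM in TO and 5.22 CPM in TOE) at 2d 4h, Fosb (-1.23) at 4d 4h, and Bnip3 (1.94) and Egr3 (-4.21) at 4d 24h. Monocyte-like cells had Sgk1 (-1.14) at 2d 4h, Pik3ip1 (-0.94) at 4d 4h, and the heat shock gene Hsph1 (2.71) and Vegfa (-2.72) at 4d 24h. Mesenchymal-like cells had Ndrg1 (1.79) and Jdp2 (-0.75) at 2d 4h, Zbtb16 (2.37) and Hsph1 (-1.19) at 4d 4h, and Sesn3, a relative of Sesn2, (1.67) and Hspb1 (-2.42) at 4d 24h.

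**Figure D5:**
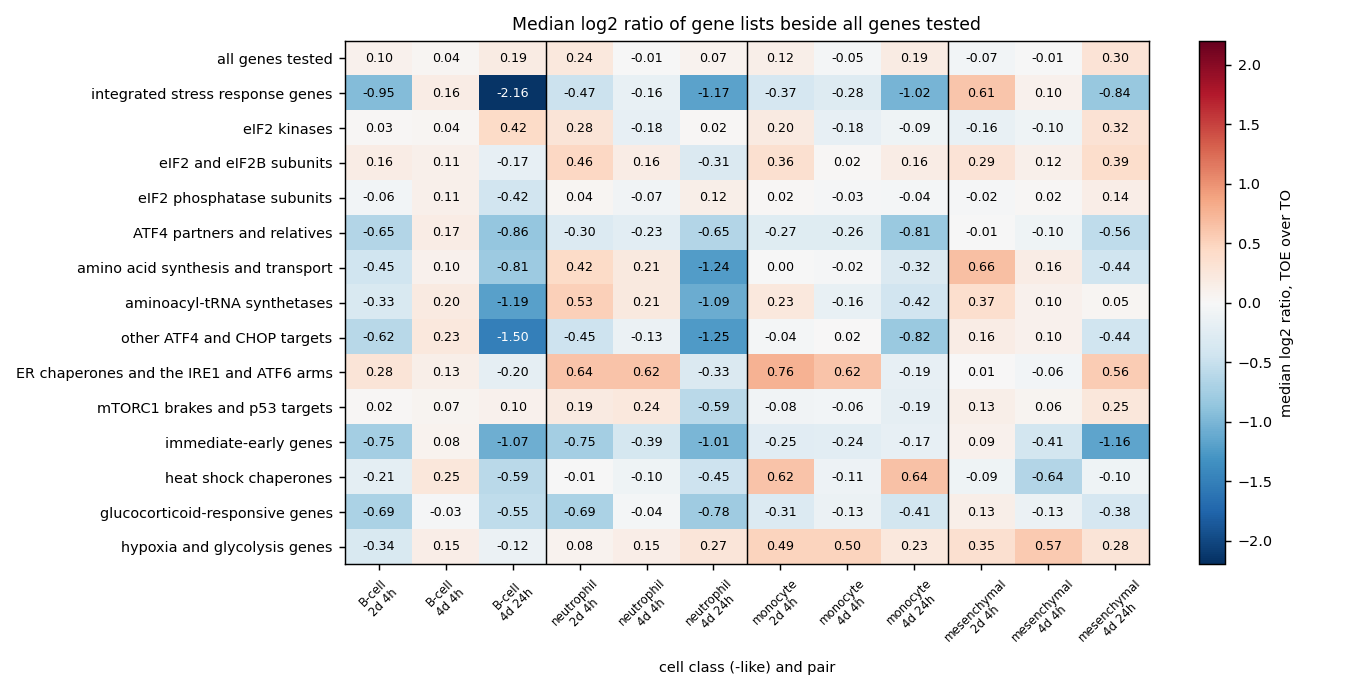
Median log2 ratio, TOE over TO, of the 8 genes, of 13 other gene lists and of all genes tested, in the 4 main classes and 3 pairs; red is higher and blue lower in TOE. At 4d 24h the 8 genes have the lowest median of B-cell-like cells (-2.16), and the eIF2 kinases of the same cells stand at 0.42.

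Likeness to other genes was described by Pearson correlation of log2(CPM + 1), each class centred on its mean, over 32 sums (8 libraries in 4 classes with at least 100 cells in each library: B-cell-like, neutrophil-like, monocyte-like and granulocyte-monocyte progenitor-like) and among 10291 genes. The sums of 1 library share its depth and free RNA. The gene most like Sesn2 was Cebpg, which encodes a C/EBP partner of ATF4, at r = 0.96, and 0.78 without TOE 4d 24h. Atf4 was most like Nfkbid (0.94, and 0.85 without that library), Ddit4 like Zc3h12a (0.92 and 0.67) and Ppp1r15a like Rab20 (0.93 and 0.75). Asns was most like Grina (0.87 and 0.83), Chac1 like LOC100911534 (0.85 and 0.81), Ddit3 like Ccer2 (0.85 and 0.69) and Trib3 like Rnf103 (0.90 and 0.74).

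Among the 8 genes themselves, Atf4 went most closely with Ppp1r15a (r = 0.90), Ddit4 (0.89) and Sesn2 (0.89), and least closely with Chac1 (0.64). Without TOE 4d 24h these values were 0.60, 0.52, 0.57 and 0.34. Ddit3 and Asns stood farthest apart, at 0.22 with all libraries and -0.31 without TOE 4d 24h. Every correlation between 2 of the 8 genes was lower without that library.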

How the data were processed

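The authors deposited 10x Genomics tables of whole-number counts of UMIs per gene and barcode. The submitters' processing notes name Cell Ranger 9.0.0, R 4.0.3 and Seurat, and genome builds without a role, so no coordinates were taken with these counts. Barcodes under 200 genes or above 20% mitochondrial UMIs were dropped, Scrublet doublets (score 0.25, expected rate 8%) were left out, and cells were scaled to 10000 UMIs. Clusters were built with scanpy 1.11.5 on 2000 variable genes without the 8 genes and the stress lists, scaled within each library, from 30 components and 15 neighbours at Leiden resolution 1. A cluster was named where at least 3 markers of a class were raised, its mean log2 marker level led the next class by 0.5, no other class had more markers among its top 10 genes, and its median UMIs per cell were not under the median of its own libraries divided by 3. The margin, the scaling and the strict use of the UMI limit were set after seeing the data. Names may differ from those of the study.

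UMIs were summed per class and library (at least 20 cells). With 1 library per condition there was no test and no p-value, and intervals cover counting error only. Ratios and intervals were tested on simulated counts that held counting error only. The simulation therefore says nothing on the spread between animals or libraries. For each class and pair, over all lists together, the genes named are the 1 with the highest and the 1 with the lowest ratio among genes with at least 50 UMIs over the pair, and for likeness the gene ranked first. The 8 genes and the lists were chosen with earlier results of these data known. The alternatives tried are given in the closing section.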

Additional observations from a re-analysis of the deposited data

Results flagged for a closer look

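Sesn2 in mesenchymal-like cells had opposite ratios of TOE to TO at 2 times. At 2d 4h it stood at 28.9 CPM in TO and 61.1 CPM in TOE (log2 ratio 1.08, 0.53 to 1.66), and at 4d 24h at 73.9 CPM in TO and 29.4 CPM in TOE (-1.32, -1.76 to -0.92). The ratios differ by 2.40 on the log2 scale. Each rests on 1 library per arm and on 63 to 117 cells, and the difference was not tested. Marker lists differed in these cells too. At 4d 24h the 9 plasma-cell markers gave 2917 CPM in TO and 301 CPM in TOE. Most of the sum in TO was Igha and Jchain, while Sdc1 and Txndc5 were lower there than in every other library. At 2d 4h the 14 erythroid markers gave 3091 CPM in TO and 540 CPM in TOE. The 14 mesenchymal markers of the class itself gave 128130 CPM in TO and 176716 CPM in TOE at 2d 4h, and 271935 and 197545 CPM at 4d 24h. Their part in the ratios was not tested.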

How the results depend on the processing

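No paired test was run, since each condition was 1 library and no pairing of libraries by animal was known. Over 13 alternatives, no ratio past 2-fold changed direction. At 4d 24h, the 22 ratios past 2-fold became 16 with the clusters of a class weighted alike and 27 with ratios centred on the median of all genes, and 14 of the 22 were past 2-fold under every alternative. At 2d 4h, the 7 ratios past 2-fold became 5 with a minimum of 500 genes and a mitochondrial limit of 10% and 10 when centred, and 1 of the 7 (Asns in mesenchymal-like cells) was past 2-fold under every alternative. At 4d 4h, the 1 ratio became 2 with that stricter cell filter, at Leiden resolution 2, with stress genes allowed among the variable genes, and with clusters that failed a naming rule counted in their best class unless low in UMIs, and 3 with the mean over cells. For the hour, the 3 cases without overlap became 1 with the mean over cells, 2 with doublets kept, at Leiden resolution 0.5, with stress genes allowed, with a denominator without mitochondrial, haemoglobin and ribosomal protein genes and with clusters weighted alike, and 3 to 8 with 1 library left out in turn, 8 being without TOE 4d 24h. The causes were not tested. Among all 94 ratios, 1068 of 1220 alternative values lay within the reported interval and 152 outside it. Counting in the best class and scaling over all libraries together were chosen after seeing the data. Levels of few UMIs, such as Trib3 in mesenchymal-like cells, are limited by depth.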
